A study of Punica granatum with 14 samples.

Results

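The transcript levels of pomegranate (Punica granatum L.) leaves grown with B9 were compared with those of leaves grown with mannitol, both doses of each chemical pooled. The samples were chosen by their treatment labels alone: the 4 B9 libraries and the 4 mannitol libraries, 8 of the 14 libraries of the series, with no untreated (CK) and no paclobutrazol library in the comparison or the fit. The 8 libraries were wild-type leaves of the cultivar 'Hongmanao', 2 plants each at 6 mg/L B9, 8 mg/L B9, 2.5 g/L mannitol and 15 g/L mannitol, sampled after 90 days of treatment. The 2 CK libraries were grown in the same way with distilled water in place of a chemical, and are used here only as a scale beside the comparison. All groups were tissue-cultured seedlings raised from stem tips on a woody plant medium that held sucrose and the auxin IBA, so the B9 and mannitol plants shared an auxin supply, and the sources used here do not say whether the stem tips came from 1 tree. The doses of the chemicals are in different units and were picked in the study by how the plants grew, so no B9 dose is matched to a mannitol dose.

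B9 (daminozide) is a growth retardant that blocks late steps of gibberellin synthesis, where enzymes that use 2-oxoglutarate convert precursors into the active hormone. Gibberellins drive stem elongation, and plants short of them stay compact. Mannitol is a sugar alcohol that many plants take up but metabolise slowly. Added to a culture medium, it lowers the water potential around the tissue and slows growth as an osmotic agent. The question this comparison addresses is which transcripts differ between plants grown with B9 and plants grown with mannitol. The paper describes B9 as an inhibitor of auxin synthesis too. How each chemical slowed these plants is not settled here, as no hormone level or water potential is given in the sources used. The genes are given by the RefSeq identifiers of the count table. Their products are not named in the sources used here, so no role is stated for any single gene, and the leaf label could not be checked against marker genes.

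The totals of the 8 libraries ran from 21332868 to 28385703 counts with a median of 23361406, and those of the CK libraries were 25139447 and 23363720. Of 27893 genes in the table, 5031 had no count in any of the 8 libraries and 19037 passed the filter on low counts. Levels are given as CPM, the counts of a gene per 1000000 counts of the scaled library total. The 100 most counted genes took 20.8 to 23.9% of the counts in the B9 libraries and 22.4 to 28.9% in the mannitol libraries, and ribosomal RNA genes took at most 0.498% in any of them. The 8 libraries were counted as separate samples because the study's methods give 2 plants per treatment, and no pair of a condition agreed within sampling noise.

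The first principal component of log2 CPM held 41.9% of the variance and separated the chemicals. The B9 libraries lay at -39.6 and -71.7 (6 mg/L, replicates 1 and 2) and at -25.8 and -68.8 (8 mg/L). The mannitol libraries lay at 17.0 and 60.7 (2.5 g/L) and at 46.1 and 82.1 (15 g/L). No library crossed 0, and in each condition the library numbered 2 lay farther from 0 than the library numbered 1. The second component held 18.9% and separated the doses of mannitol, at 31.2 and 67.9 for 2.5 g/L against -39.3 and -32.9 for 15 g/L. The B9 doses were less far apart on it, at 2.49 and 28.2 for 6 mg/L and -46.2 and -11.4 for 8 mg/L. Correlations of log2 CPM across genes, which are not independent of each other, were 0.955 to 0.972 between plants of 1 condition, 0.939 to 0.963 between the doses of 1 chemical and 0.890 to 0.951 between the chemicals.

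**Figure D1:**
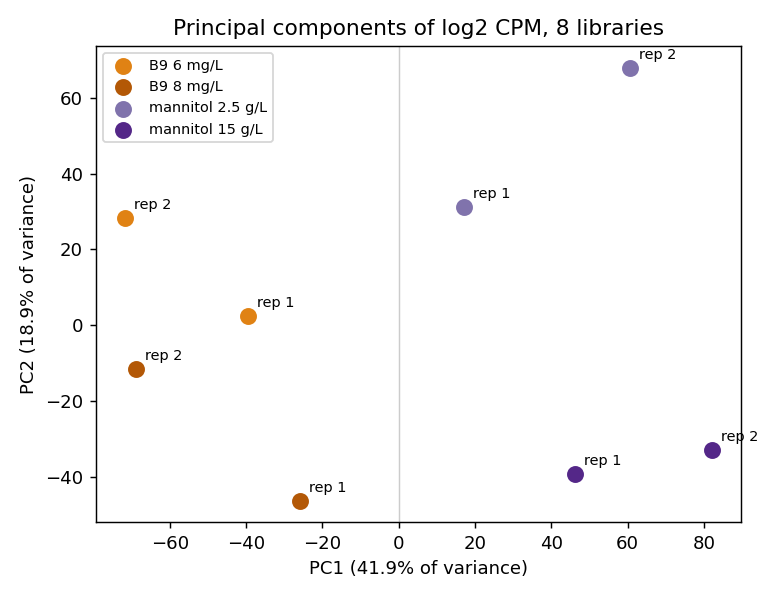
Scores of the 8 libraries on the first and second principal components of log2 CPM (axes give the share of variance, points are single libraries, colours mark the 4 conditions, labels give the replicate). All 4 B9 libraries lie between -71.7 and -25.8 on the first component and all 4 mannitol libraries between 17.0 and 82.1.

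B9 and mannitol leaves differed in the level of 2086 genes, 11.0% of the 19037 tested. In the B9 leaves 910 genes were higher (4.78%) and 1176 were lower (6.18%). A gene was called where the fitted mean of the B9 conditions differed from that of the mannitol conditions by more than 1 on the log2 scale and the adjusted p of edgeR's quasi-likelihood test was below 0.05. The genes called higher took 8.27 to 11.1% of all counts in the B9 libraries, against 2.22 to 3.54% in the mannitol libraries, and 2.34 and 2.35% in the CK libraries. The genes called lower took 4.11 to 7.45% of counts in the B9 libraries and 10.9 to 16.0% in the mannitol libraries, with 12.7 and 12.5% in CK. These ranges describe the called genes and are no test, since the genes were chosen by the same values.

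Of the 910 genes called higher, 762 (83.7%) had all 4 B9 libraries above all 4 mannitol libraries, and of the 1176 called lower, 898 (76.4%) had all 4 B9 libraries below. Among all tested genes the corresponding shares were 18.1% above and 15.9% below, so many genes separated the chemicals by less than the 2-fold threshold. With the adjusted p alone, 7420 genes passed (39.0%), 3693 of them higher and 3727 lower in B9. Among the calls the changes were larger on the higher side: the median size was 1.52 on the log2 scale (median SE 0.301), 269 genes exceeded 2 and 34 exceeded 4. On the lower side the median size was 1.36 (median SE 0.246), 217 genes exceeded 2 and 26 exceeded 4. The genes called higher were also less abundant, with a median of 8.50 CPM against 12.4 CPM for those called lower. Both sets were cut at the same fold and adjusted p, so their sizes stand as a description. Single libraries weighed on the count. Leaving out mannitol 15 g/L replicate 2 left 1394 calls, of which 575 were higher and 819 lower, the fewest of the 8 such fits.

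**Figure D2:**
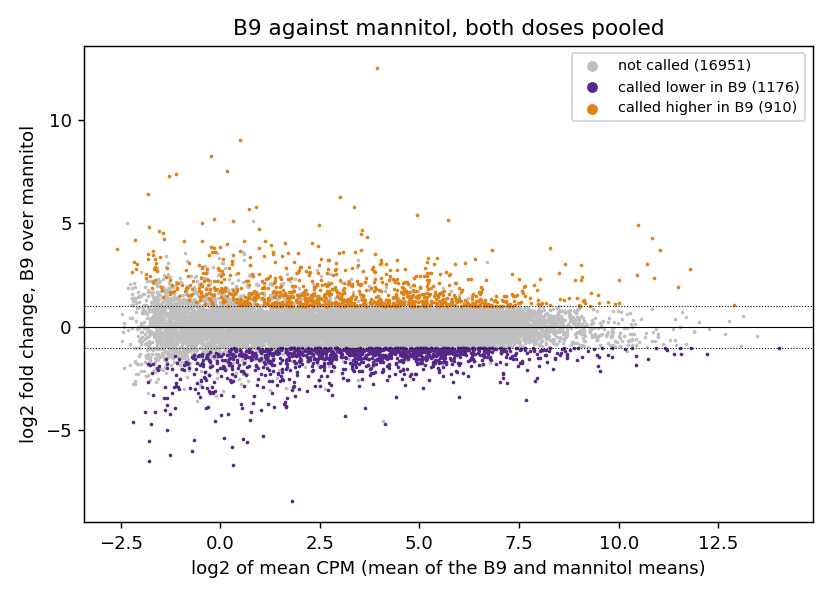
Log2 fold change of B9 over mannitol (vertical axis) against the log2 of the mean CPM (horizontal axis) for the 19037 tested genes, with dotted lines at the log2 threshold of 1. The 910 genes called higher and the 1176 called lower are coloured, and genes called higher include 1 at 12.5 whose mannitol libraries held no count.

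The genes with the smallest adjusted p among those whose libraries did not overlap were all protein-coding. In the 10 named on the higher side the log2 fold change ran from 1.47 to 4.92 and the adjusted p was at most 0.00136. LOC116205179 was measured at 11.7, 12.9, 11.7 and 10.7 CPM in the B9 libraries (6 mg/L replicates 1 and 2, then 8 mg/L replicates 1 and 2) and at 1.61, 1.79, 1.03 and 0.788 CPM in the mannitol libraries (2.5 g/L replicates 1 and 2, then 15 g/L replicates 1 and 2), and the same order is used throughout. The B9 plants stood close together, about 9.40 times above the mannitol plants (log2 fold change 3.23, SE 0.176, adjusted p = 0.00110), and CK at 1.22 and 0.589 CPM stood with mannitol. LOC116194707 rose the most of the 10, with 12.8, 17.2, 5.76 and 7.37 CPM in B9 against 0.412, 0.174, 0.473 and 0.232 CPM in mannitol (log2 fold change 4.92, SE 0.344, adjusted p = 0.00136). It was near 0 in mannitol and in CK (0.111 and 0.393 CPM). LOC116197002 gave 29.6, 34.7, 30.2 and 24.9 CPM in B9 and 3.87, 2.09, 3.48 and 3.10 CPM in mannitol (log2 fold change 3.24, SE 0.206, adjusted p = 0.00131). The doses of each chemical overlapped in it, and CK lay at 2.40 and 1.77 CPM.

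LOC116206046 held 45.7, 54.2, 30.8 and 39.9 CPM in B9 and 10.1, 9.07, 8.94 and 8.99 CPM in mannitol (log2 fold change 2.18, SE 0.122, adjusted p = 0.00110), with CK at 7.80 and 9.07 CPM. The mannitol and CK libraries of this gene lay close together, while the B9 libraries spread more widely. LOC116210857 held 64.9, 68.5, 41.9 and 41.2 CPM in B9 and 11.1, 14.3, 8.64 and 5.98 CPM in mannitol (log2 fold change 2.45, SE 0.143, adjusted p = 0.00112). In it the lower dose of each chemical had the higher level. LOC116204462 was the 1 gene of the 10 in which CK was nearer B9: 192, 188, 152 and 166 CPM in B9, 81.3, 93.8, 46.9 and 43.5 CPM in mannitol and 261 and 94.1 CPM in CK (log2 fold change 1.47, SE 0.0862, adjusted p = 0.00112). The CK plants lay far apart from each other in it. The remaining 4 were LOC116188308 (42.7 to 63.2 CPM in B9, 11.6 to 15.4 CPM in mannitol), LOC116202541 (109 to 125 and 33.1 to 51.6), LOC116215326 (12.9 to 26.3 and 1.99 to 2.68) and LOC116208257 (65.05 to 82.03 and 19.6 to 24.8). LOC116188308 and LOC116215326 overlap another annotated gene, and as the strand setting of the counting is not given in the sources used here, their reads may include those of the neighbour.

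On the lower side the 10 named genes had log2 fold changes from -3.55 to -1.10, with an adjusted p of at most 0.00136. LOC116196862 had the smallest, with 16.9, 21.7, 72.7 and 67.8 CPM in B9 and 217, 208, 278 and 287 CPM in mannitol (log2 fold change -2.73, SE 0.105, adjusted p = 0.000455). Both B9 doses lay below every mannitol library, and the 6 mg/L plants lay lower still than the 8 mg/L plants. It overlaps another annotated gene. CK was at 468 and 242 CPM in it, replicate 1 above the mannitol range and replicate 2 within it. LOC116196145 fell the most of the 10, with 17.7, 17.8, 55.1 and 49.4 CPM in B9 and 179.6, 348, 385 and 584 CPM in mannitol (log2 fold change -3.55, SE 0.249, adjusted p = 0.00136). Within each chemical its higher dose had the higher level, and CK lay at 171 and 139 CPM. LOC116195461 was the most abundant of the 10, with 91.4, 87.1, 177 and 157 CPM in B9, 290.0, 436, 688 and 696 CPM in mannitol and 606 and 398 CPM in CK (log2 fold change -2.04, SE 0.146, adjusted p = 0.00136). Here too the 6 mg/L plants were the lowest of all.

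In 4 of the 10 the CK mean was nearer B9 than mannitol on the log2 scale. LOC116196349 held 8.21, 8.72, 13.2 and 10.7 CPM in B9 and 36.8, 44.2, 41.7 and 42.5 CPM in mannitol (log2 fold change -2.04, SE 0.110, adjusted p = 0.00110), and CK at 12.7 and 14.3 CPM lay at the upper edge of B9. LOC116214706 held 42.8, 39.7, 65.6 and 47.9 CPM in B9 and 179, 219.8, 220.0 and 287 CPM in mannitol (log2 fold change -2.22, SE 0.149, adjusted p = 0.00136), with CK at 93.4 and 49.3 CPM. LOC116204803 differed by the smallest fold, 46.3, 47.3, 49.95 and 47.7 CPM in B9 against 96.9, 104, 106 and 105 CPM in mannitol (log2 fold change -1.10, SE 0.0712, adjusted p = 0.00131), and CK was 63.3 and 61.2 CPM. The libraries of each chemical agreed closely in it. LOC116215840 (37.1 to 44.00 CPM in B9, 92.5 to 141 CPM in mannitol) was the fourth, with CK at 59.9 and 75.4 CPM, about midway. In LOC116204803 and LOC116215840 both CK libraries lay between the chemicals without overlap. The other 3, LOC116193505 (6.61 to 17.6 and 41.2 to 56.9 CPM), LOC116210678 (14.6 to 35.4 and 61.9 to 99.9 CPM) and LOC116202565 (13.9 to 25.1 and 37.2 to 75.3 CPM), had CK within or near the mannitol range. All 20 genes kept their direction and their call whichever 1 of the 8 libraries was left out.

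**Figure D3:**
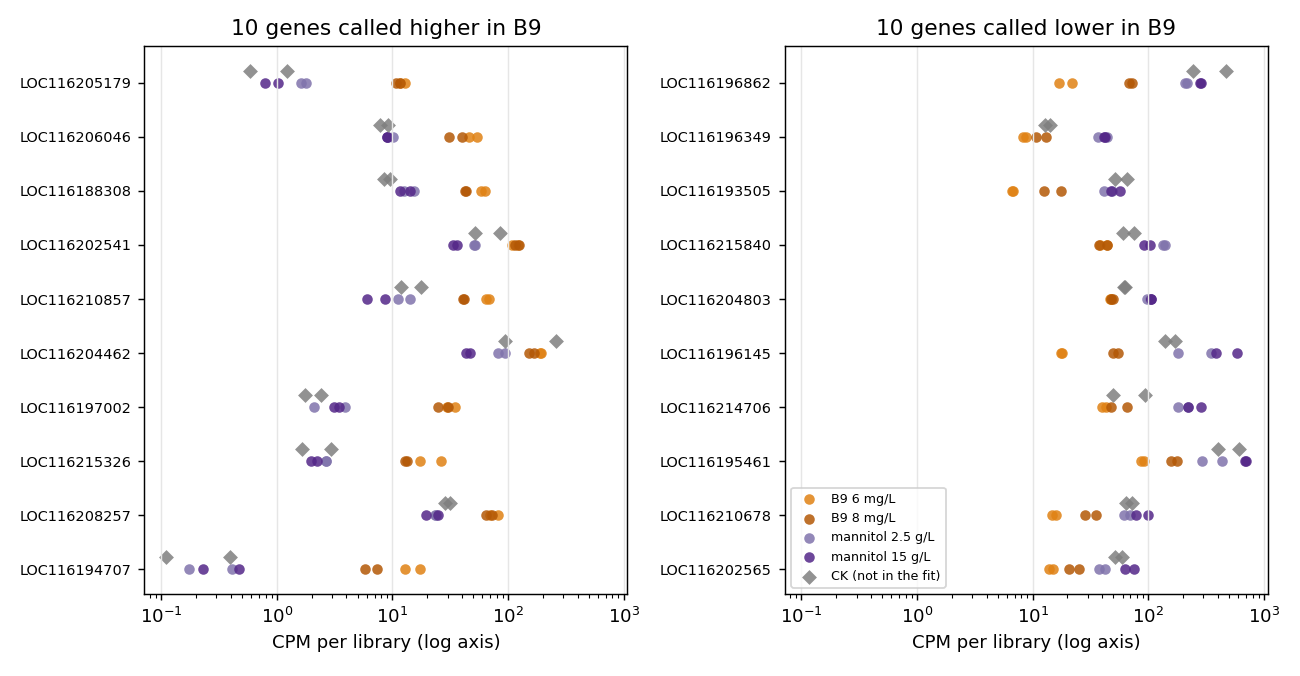
CPM per library (horizontal log axis) of the 10 genes with the smallest adjusted p called higher in B9 (left) and lower (right), circles for B9 and mannitol libraries by dose and diamonds, drawn slightly above each row, for the CK libraries, which were in no fit. In every row the 4 B9 circles and the 4 mannitol circles do not overlap, which the choice of the genes required.

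The called genes with high counts were described next. They were chosen after their values were seen: 18 called genes had a mean above 250 CPM and a change of more than 4-fold, 16 of them higher in B9 and 2 lower. Over all calls past 4-fold, 269 were higher and 217 lower. How many tested genes had a mean above 250 CPM was not counted, so the split is not read as a result about abundant genes. The 16 took 3.74, 3.61, 2.78 and 3.03% of all counts in the B9 libraries, and 0.560, 0.235, 0.551 and 0.349% in the mannitol libraries. CK stood at 0.271 and 0.261%. LOC116211880, the gene of the 16 with the largest fold, was at 4874, 1761, 2793 and 1621 CPM in B9 and 288, 20.4, 77.8 and 29.00 CPM in mannitol (log2 fold change 4.90, SE 0.893, adjusted p = 0.00588). In CK it was at 1.74 and 5.34 CPM, so all 4 mannitol libraries lay between CK and B9. LOC116195364 was at 3471, 4515, 3229 and 2561 CPM in B9 and 157, 66.5, 363 and 181 CPM in mannitol (log2 fold change 4.28, SE 0.379, adjusted p = 0.00152), with CK at 90.2 and 32.8 CPM. LOC116200065 was at 6131, 2682, 3707 and 3230.1 CPM in B9 and 460.0, 85.3, 444 and 199 CPM in mannitol (log2 fold change 3.72, SE 0.606, adjusted p = 0.00414), and CK again lay lowest, at 53.4 and 36.3 CPM. LOC116189090 was the most abundant, at 5865, 6770.1, 4866 and 6898 CPM in B9, 946, 331, 1195 and 1277 CPM in mannitol and 1315 and 1024 CPM in CK (log2 fold change 2.78, SE 0.350, adjusted p = 0.00223). Here CK lay with mannitol.

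In 9 of the 16 genes both CK libraries lay below all 4 mannitol libraries, so that the mean was highest in B9, intermediate in mannitol and lowest in CK. Over the 762 non-overlapping genes called higher this order held in 146 (19.2%), and CK was below all mannitol libraries in 15.6% of all tested genes. Since the 16 were picked for their level, the counts stand as a description. LOC116213226, 1 of the 9 and given below, had 1 B9 library within the mannitol range. The libraries of LOC116208007 and LOC116187791 also overlapped between the chemicals. The former ranged from 178 to 1551 CPM in B9 and from 22.1 to 252 CPM in mannitol, and its call was lost without B9 6 mg/L replicate 2, B9 8 mg/L replicate 2, mannitol 2.5 g/L replicate 2 or mannitol 15 g/L replicate 2. The latter ranged from 339 to 1234 CPM in B9 and from 24.98 to 477 CPM in mannitol, and its call was lost without the first, second or last of these libraries and with 2 groups of 4 and no dose in the fit (adjusted p up to 0.339 over its alternatives, and up to 0.256 for LOC116208007). On the lower side, LOC116216063 was at 68.1, 31.3, 691 and 551 CPM in B9 and 285, 286, 1427 and 2617 CPM in mannitol (log2 fold change -2.11, SE 0.297, adjusted p = 0.00281), and CK was at 786 and 1490.4 CPM. The 8 mg/L libraries exceeded the 2.5 g/L mannitol libraries in it, so its direction depended on which doses were paired, and its call was lost with 2 groups of 4 and no dose in the fit. The genes with the most counts among all calls changed less: LOC116209490 was at 9569 to 11037 CPM in B9 and 3987 to 5568 CPM in mannitol, and LOC116203877 at 5045 to 14914 and 14850.0 to 34892 CPM. The former lost its call without mannitol 15 g/L replicate 2 and with the gene length trend removed. The latter, whose fold was close to 2, lost it without any 1 of the libraries other than B9 6 mg/L replicate 1, with the library size alone and with 2 groups of 4 and no dose in the fit.

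Some calls rested on a group in which the gene was all but absent, meaning 3 counts or fewer in each of its 4 libraries. This held for the mannitol side in 26 of the 2086 calls and for the B9 side in 15. Such genes could pass the filter on low counts only through the other chemical, which fixed their direction. Their folds and adjusted p therefore stand as a description and not as a test. How many of all tested genes had such a side was not counted. LOC116201290 had no count in any mannitol library and none in B9 6 mg/L replicate 1, but 1268, 956 and 846 counts (55.8, 33.3 and 33.2 CPM) in the other B9 libraries and 24.4 and 21.6 CPM in CK. It was at least 234-fold higher in B9 on average, against a floor of 3 counts per library (adjusted p = 0.0260). One B9 plant was thus as empty of it as the mannitol plants. The call was lost in 7 of 17 alternatives: the test against a fold of 2, and the fits without B9 6 mg/L replicate 2, either 8 mg/L library, mannitol 2.5 g/L replicate 2 or either 15 g/L library. LOC116188609 was at 6.63, 16.8, 1.81 and 2.36 CPM in mannitol and 1.41 and 6.09 CPM in CK, while the B9 libraries held 0, 0, 2 and 0 counts, at least 56.1-fold lower. LOC116205496 was at 0.824, 2.96, 5.67 and 7.04 CPM in mannitol and held 0, 3, 3 and 3 counts in B9, at least 33.5-fold lower. LOC116192912 was at 2.02, 5.45, 2.19 and 2.87 CPM in mannitol and held 1 or 2 counts in each B9 library, at least 25.5-fold lower, with CK at 4.44 and 4.24 CPM. In these 3 genes CK lay on the mannitol side. LOC116193002 went the other way, with 5.00, 4.09, 2.34 and 1.57 CPM in B9 and 1, 1, 3 and 0 counts in mannitol, at least 24.9-fold higher.

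Among calls without such a floor, the largest folds were also described after their values were seen. LOC116199097 was at 27.8, 17.9, 10.3 and 7.88 CPM in B9 and 0.412, 0, 0.172 and 0.139 CPM in mannitol (log2 fold change 6.27, SE 0.595, adjusted p = 0.00159), and at 0.0370 and 0 CPM in CK. LOC116199094, a long non-coding RNA, was at 4.18, 2.51, 4.57 and 3.33 CPM in B9 and 0.165, 0, 0.0860 and 0 CPM in mannitol, and LOC116194601 at 21.01, 28.8, 11.9 and 19.1 and 0.412, 0.0872, 0.860 and 0.139 CPM. All 3 were near 0 without B9. On the lower side LOC116194985 was at 0, 0, 0.0349 and 0.588 CPM in B9, 1.73, 2.35, 1.12 and 3.98 CPM in mannitol and 30.5 and 42.1 CPM in CK. LOC116187022 was at 0, 0, 0.419 and 0.980 CPM in B9, 1.69, 4.62, 2.45 and 1.76 CPM in mannitol and 23.2 and 15.04 CPM in CK. In both, mannitol lay between B9 and a much higher CK. LOC116189418 showed another order: 0.0918, 0.176, 0 and 0 CPM in B9, 1.07, 1.22, 1.12 and 1.30 CPM in mannitol and no count in either CK library, so mannitol stood above the other groups.

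The position of CK was then described for all called genes whose libraries did not overlap, on a scale where 0 is the mannitol mean and 1 the B9 mean of log2 CPM. CK was nearer mannitol than B9 in 675 of the 762 genes called higher (88.6%) and in 782 of the 898 called lower (87.1%). The median position was -0.06 for the former (quartiles -0.37 and 0.22) and 0.09 for the latter (quartiles -0.12 and 0.30). Among the genes called higher, the CK mean fell within the range of the mannitol libraries in 427, below it in 208, between the chemicals in 77, within the B9 range in 45 and above it in 5. Among the genes called lower, the corresponding numbers were 547 within the mannitol range, 102 above it, 180 between the chemicals, 61 within the B9 range and 8 below it. In most of these genes the B9 plants were thus the ones farther from CK, and in a smaller number the mannitol plants were. No test was made of this position, as CK was in no fit. With the library size alone in place of TMM, CK was nearer mannitol in 85.4% of the genes called higher and 90.5% of those called lower. The medians then changed sign, to 0.03 and -0.02, and CK lay beyond mannitol in 154 genes called higher and 157 called lower, so the difference between 208 and 102 depends on the scaling.

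**Figure D4:**
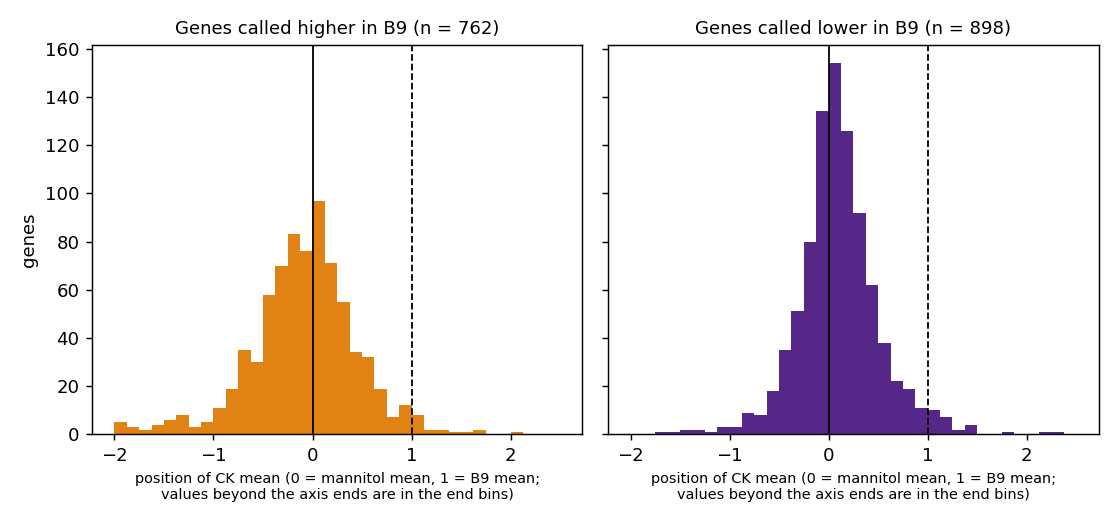
Number of genes (vertical axis) by the position of the CK mean on the log2 CPM scale, where 0 (solid line) is the mannitol mean and 1 (dashed line) the B9 mean, for the 762 genes called higher and the 898 called lower in B9 whose libraries did not overlap. Both distributions centre near 0, with medians of -0.06 and 0.09.

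Each B9 dose was also set against each mannitol dose, to see whether calls rested on 1 condition. The 4 pairings gave 1723 calls for 6 mg/L against 2.5 g/L (9.05% of genes, 3.64% higher and 5.42% lower), 2057 for 6 mg/L against 15 g/L (10.8%, 4.16% higher and 6.65% lower), 1895 for 8 mg/L against 2.5 g/L (9.95%, 4.29% higher and 5.66% lower) and 1493 for 8 mg/L against 15 g/L (7.84%, 3.49% higher and 4.35% lower). Of the 910 genes called higher in the pooled comparison, 195 were called higher in all 4 pairings, 154 in 3, 289 in 2, 114 in 1 and 158 in none. Of the 1176 called lower, 239 were called lower in all 4, 307 in 3, 379 in 2, 152 in 1 and 99 in none. These share libraries with the pooled contrast and are not separate evidence. With 2 plants on each side the pairings depended on single libraries: without mannitol 15 g/L replicate 2 the pairing of 8 mg/L with 15 g/L had 5 calls and that of 6 mg/L with 15 g/L had 345. Without B9 6 mg/L replicate 1 the pairing of 6 mg/L with 2.5 g/L had 1018 calls. Without B9 6 mg/L replicate 2 the pairings of 6 mg/L with 2.5 and 15 g/L had 182 and 534 calls. Without B9 8 mg/L replicate 2 the pairings of 8 mg/L with 2.5 and 15 g/L had 768 and 23, and without mannitol 2.5 g/L replicate 2 the pairings of 6 and 8 mg/L with it had 354 and 854.

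Set against each other within a chemical, the doses gave far fewer calls. Between 8 and 6 mg/L B9, 3 genes were called (0.0158%), 1 higher (0.00525%) and 2 lower (0.0105%) at 8 mg/L, with 685 at an unadjusted p below 0.05 past the same fold (3.60%) and 212 called by DESeq2. The count was 0 without B9 8 mg/L replicate 1 or either 15 g/L mannitol library, 5 without B9 6 mg/L replicate 1 and 27 without B9 8 mg/L replicate 2. All 3 are among the genes called lower in the pooled comparison. LOC116187053 was at 18.3, 33.01, 0 and 0.0392 CPM in the B9 libraries, 11.1, 11.3, 13.7 and 11.8 CPM in mannitol and 12.4 and 14.1 CPM in CK, so 8 mg/L was all but free of it while 6 mg/L was above mannitol. Its 8 mg/L libraries held 0 and 1 counts against 398 and 750 at 6 mg/L. LOC116192970 was at 31.2, 18.8, 0.733 and 0.902 CPM in B9, 20.2, 13.8, 25.4 and 22.7 CPM in mannitol and 12.6 and 13.3 CPM in CK. In mean CPM, B9 was at 12.8 and mannitol at 12.0 for LOC116187053, and at 12.9 and 20.5 for LOC116192970. For both genes the lower fitted B9 mean, averaged over the doses on the log2 scale, comes from 8 mg/L alone. Their pooled calls do not describe the 6 mg/L plants. With 2 groups of 4 and no dose in the fit, both calls were lost, and the log2 fold change of LOC116187053 went from -3.94 to 0.0949. LOC116196862, given above, was higher at 8 than at 6 mg/L and below mannitol at both.

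Between 15 and 2.5 g/L mannitol, 80 genes were called (0.420%), 57 higher (0.299%) and 23 lower (0.121%) at 15 g/L, with 1338 at an unadjusted p below 0.05 past the same fold (7.03%) and 804 called by DESeq2. Of these 80, 6 were among the genes called higher and 9 among those called lower in B9. The count was 22 without mannitol 2.5 g/L replicate 1 and 0 without any other of the 8 libraries, and 140 when genes averaging under 50 counts were dropped. In the genes called higher in B9, the level at 8 mg/L exceeded that at 6 mg/L in 340 of 910 (37.4%; median difference -0.13 on the log2 scale), and that at 15 g/L exceeded 2.5 g/L in 316 (34.7%; median -0.29). In the genes called lower, the shares were 691 of 1176 for B9 (58.8%; median 0.19) and 617 for mannitol (52.5%; median 0.04). Over all tested genes they were 50.7% and 48.2%. In most called genes of both directions the 6 mg/L plants were thus the farther from mannitol, a description with no test, as the same libraries chose the genes.

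The RefSeq annotation lists the kind of transcript for each gene, which the contrast did not use. Protein-coding genes gave 849 of the calls higher in B9 (4.67% of 18165 tested) and 1116 of those lower (6.14%), close to the shares of all genes. Long non-coding RNAs, which carry no long open reading frame, were called in 54 cases higher (6.75% of 800 tested) and 58 lower (7.25%), beside 4.78% and 6.18% of all genes, with a median log2 fold change of 0.06 beside 0.02 for all genes. LOC116206706 was the long non-coding RNA with the smallest adjusted p on the higher side, at 34.6, 33.8, 34.6 and 38.3 CPM in B9 and 11.4, 11.9, 7.05 and 4.36 CPM in mannitol (log2 fold change 2.11, SE 0.154, adjusted p = 0.00136), with CK at 9.17 and 9.35 CPM. LOC116206178, another, was abundant: 736, 853, 743 and 749 CPM in B9, 420.0, 314, 334 and 254 CPM in mannitol and 244 and 189 CPM in CK (log2 fold change 1.23, SE 0.148, adjusted p = 0.00209). On the lower side LOC116206068 was at 1.33, 1.14, 1.78 and 1.18 CPM in B9 and 10.01, 11.03, 7.35 and 11.4 CPM in mannitol (log2 fold change -2.87, SE 0.240, adjusted p = 0.00149), with CK at 9.02 and 5.38 CPM. LOC116199426 was at 11.97, 10.8, 10.95 and 9.49 CPM in B9, 19.9, 21.1, 23.1 and 29.7 CPM in mannitol and 9.91 and 8.17 CPM in CK (log2 fold change -1.11, SE 0.121, adjusted p = 0.00184), so that mannitol stood apart from the other groups in it.

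Small nucleolar RNAs guide chemical modification of ribosomal and other RNAs. Of 262 listed, 52 passed the filter, 40 of those had a log2 fold change above 0 and their median was 0.60, beside 0.02 for all tested genes. The 4 B9 libraries lay above all 4 mannitol libraries in 14 of the 52 and below in 0, beside 18.1% and 15.9% of all genes. Those called were 6 higher (11.5%) and 0 lower, beside 4.78% and 6.18% of all genes. At the adjusted p alone 7 of the 52 passed, all higher, beside 39.0% of all genes. At an unadjusted p below 0.05 past the same fold 14 were higher and 0 lower, beside 12.8% of all genes in either direction, and DESeq2 called 5 higher and 0 lower. The filter on low counts can be passed through the libraries of 1 chemical alone. The numbers above include such members, so they stand as a description of these genes. LOC116215762 had 11, 6, 7 and 11 counts in B9, 2, 0, 2 and 1 in mannitol, and 1 and 0 in CK. LOC116206512 was at 5.92, 6.69, 5.58 and 7.25 CPM in B9 and 2.76, 1.22, 3.22 and 1.71 CPM in mannitol (log2 fold change 1.52, SE 0.330, adjusted p = 0.0112), with CK at 1.11 and 1.69 CPM. LOC116206507 was at 4.82, 5.59, 6.80 and 7.18 CPM in B9 and 2.80, 2.18, 3.48 and 2.41 CPM in mannitol (log2 fold change 1.15, SE 0.209, adjusted p = 0.00582), with CK at 2.55 and 2.71 CPM. In both genes the B9 libraries lay above mannitol and CK. The others called were LOC116198344, LOC116212571 and LOC116215768. The small nucleolar RNAs tested had a median gene length of 97.5 bases, against 3122 bases for all tested genes, and once the trend with gene length described below was taken out LOC116206512, LOC116215762 and LOC116215768 were still called while LOC116206507, LOC116198344 and LOC116212571 were not. Leaving out some single library cost LOC116198344, LOC116212571, LOC116215762 and LOC116215768 their calls, in 6, 1, 7 and 7 of the 8 such fits. LOC116206507 and LOC116206512 kept theirs in all 8, so of the 6 only LOC116206512 was called both in these fits and without the length trend. Of the 6 small nuclear RNAs tested, components of the splicing machinery, LOC116198272 was called higher (0.384 to 1.61 CPM in B9, 0.131 to 0.324 CPM in mannitol), and LOC116193360 (1.80 to 3.44 and 9.84 to 25.7 CPM) and LOC116190300 (0.863 to 2.07 and 5.89 to 15.6 CPM) lower. The last 2 overlap another gene, and LOC116198272 lost its call in 5 of the 8 fits without 1 library. The 6 are too few to set their shares, 16.7% higher and 33.3% lower, against the 4.78% and 6.18% of all genes. Of the 11 ribosomal RNA genes tested, 0 were called by edgeR or DESeq2, beside 11.0% of all genes by edgeR. At an unadjusted p below 0.05, 0 passed the fold, beside 12.8% of all genes. These 11 genes are too few to read this as a difference.

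The called genes were also placed in their order along the chromosomes, which the contrast did not use. Along the chromosomes of the RefSeq assembly, 18836 tested genes formed 18828 adjacent pairs, and in 302 of these both genes were called. The direction was shared in 194 of the 302 (64.2%), 87 pairs being higher and 107 lower, and 12 of the 194 pairs overlap. In all, 351 of the 2060 placed calls (17.0%) had such a neighbour. There were 25 runs of 3 or more adjacent tested genes called alike, 14 higher and 11 lower. Of all tested genes 11.0% were called, 4.78% higher and 6.18% lower. How many pairs, shared directions and runs these shares alone would give was not worked out, so the counts stand as a description. Product names were not used here, so how many runs hold members of 1 family was not examined, and reads of near-identical copies, where they were mapped to 1 place, may be divided unevenly among them.

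The longest run held 8 genes lower in B9: LOC116203457, LOC116203460, LOC116203456, LOC116203463, LOC116203465, LOC116203459, LOC116203458 and LOC116202565. Of these LOC116202565 and LOC116203458 carried most of the counts. LOC116203458 was at 2.06, 2.38, 5.83 and 4.67 CPM in B9 and 10.8, 21.4, 25.1 and 41.05 CPM in mannitol (log2 fold change -2.75, SE 0.276, adjusted p = 0.00177), with CK at 12.2 and 19.8 CPM, and the other 6 had mannitol means of 0.653 to 2.96 CPM. A run of 6 lower genes comprised LOC116194706, LOC116194705, LOC116194508, LOC116194507, LOC116194924 and LOC116196626. In this run LOC116194507 was at 0.596, 0.660, 1.12 and 1.02 CPM in B9, 3.34, 6.76, 6.79 and 8.02 CPM in mannitol and 2.18 and 3.61 CPM in CK (log2 fold change -2.89, SE 0.293, adjusted p = 0.00178), and LOC116196626 at 0.138, 0.0880, 1.05 and 0.471 CPM in B9, 2.47, 3.97, 5.54 and 6.53 CPM in mannitol and 0.740 and 1.96 CPM in CK (log2 fold change -3.88, SE 0.390, adjusted p = 0.00178). All 6 genes had their lowest mannitol value in replicate 1 of 2.5 g/L. On the higher side a run of 5 held LOC116187584, LOC116187585, LOC116187583, LOC116189396 and LOC116189394, of which the second and the fourth are long non-coding RNAs. The last 2 of the run overlap annotated genes. LOC116187583 was at 2.02, 3.61, 3.49 and 7.02 CPM in B9 and 0.906, 0.567, 0.731 and 0.556 CPM in mannitol (log2 fold change 2.47, SE 0.379, adjusted p = 0.00346). A run of 4 lower genes comprised LOC116195399, LOC116197237, LOC116193592 and LOC116195640, with mannitol means of 2.99 to 125 CPM. Libraries overlapped between the chemicals in LOC116194706, LOC116194508, LOC116187584 and LOC116193592, and the last overlaps another annotated gene. With 2 groups of 4 and no dose in the fit, LOC116203459 and LOC116193592 lost their calls. LOC116195399 and LOC116189396 lost theirs with the length trend removed, the former also with the library size alone and the latter with no filter. The lengths of these runs rest on some calls that a single library decided: leaving 1 out cost LOC116203459 its call in 7 of the 8 fits, LOC116203463 and LOC116203465 in 2, LOC116194706 in 6, LOC116187584 in 4, LOC116189396 in 7 and LOC116195399 in 3.

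A run of 4 higher genes held LOC116214823, LOC116214822, LOC116214825 and LOC116213226, of which all but LOC116214825 are among the 16 abundant genes above. LOC116214823 was at 1982, 3188, 1822 and 2610.0 CPM in B9, 554, 420.0, 518 and 199 CPM in mannitol and 69.8 and 184 CPM in CK (log2 fold change 2.52, SE 0.347, adjusted p = 0.00267). LOC116214822 was at 676, 621, 490.5 and 541 CPM in B9, 61.7, 19.1, 56.2 and 28.9 CPM in mannitol and 3.22 and 10.4 CPM in CK (log2 fold change 3.80, SE 0.403, adjusted p = 0.00181). LOC116214825 was at 6604, 5502, 2883 and 3263 CPM in B9, 926, 841, 1809.8 and 1119.7 CPM in mannitol and 73.3 and 168 CPM in CK (log2 fold change 1.92, SE 0.204, adjusted p = 0.00181). In LOC116214823, LOC116214822 and LOC116214825 CK was lowest, mannitol intermediate and B9 highest, with no overlap between the 3 groups. LOC116213226, the fourth of the run, was at 737, 641, 99.4 and 274 CPM in B9, 29.9, 60.9, 133 and 96.6 CPM in mannitol and 4.73 and 8.76 CPM in CK (log2 fold change 2.31, SE 0.366, adjusted p = 0.00380), and B9 8 mg/L replicate 1 lay within its mannitol range.

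The fold change moved with gene length, the span of the gene in the RefSeq annotation with its introns. Across the 19034 tested genes with a length, which are not independent replicates, the rank correlation of the log2 fold change with length was -0.29. In the shortest 10% of the genes the median log2 fold change was 0.26, with 10.1% called higher and 7.30% lower. In the longest 10% the median was -0.42, with 1.63% called higher and 13.4% lower. The trend was present in single libraries but not to the same extent: the rank correlation of each library's deviation from the mean of all 8 with length was -0.125, -0.0928, -0.288 and -0.369 in the B9 libraries and 0.210, 0.279, 0.0385 and 0.212 in the mannitol libraries. All B9 libraries were below 0 and all mannitol libraries above. Whether the trend came with the treatments or with the libraries cannot be told apart here.

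When each library's trend with length was taken out, the correlation was -0.03 and 1817 genes were called, 761 higher and 1056 lower. Of the 2086 calls, 1588 were kept in the same direction, 685 of the 910 higher and 903 of the 1176 lower. The 20 named genes with the smallest adjusted p were all still called.

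**Figure D5:**
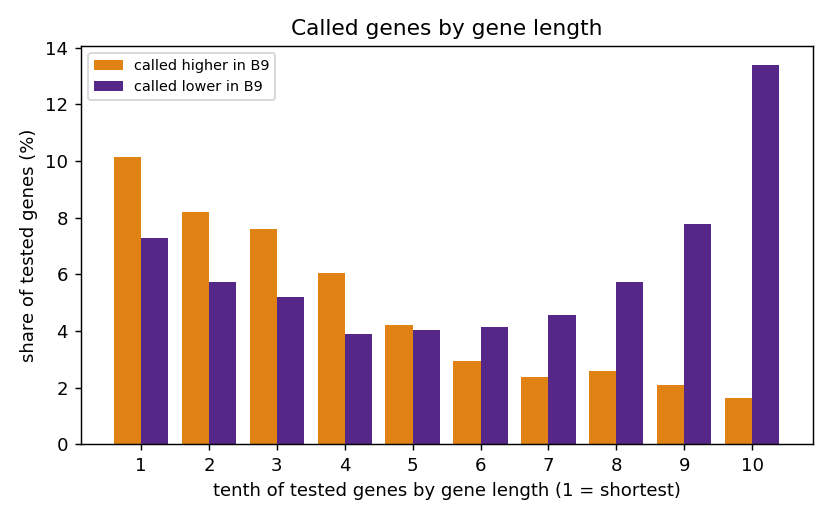
Share of tested genes (vertical axis, %) called higher and called lower in B9, in 10 equal bins of gene length from the shortest (1) to the longest (10). The share called higher goes from 10.1% in the shortest bin to 1.63% in the longest, and the share called lower rises from a low in the middle to 13.4% in the longest bin.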

How the data were processed

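The authors deposited 1 table of raw counts per gene for 14 libraries, made with HISAT2, removal of reads that mapped to several places, and featureCounts. The paper cites Luo et al. for the P. granatum reference genome of the alignment. Versions, the assembly name of that genome and the strand setting are not given in the sources used here, so no coordinates are printed.

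Counts of the 4 B9 and the 4 mannitol libraries (2 plants per condition) were tested with edgeR 4.0.16 in R 4.3.3 (filterByExpr with a minimum count of 10, TMM, glmQLFit and glmQLFTest). The contrast was the mean of the B9 conditions minus that of the mannitol conditions, and adjusted p is Benjamini-Hochberg over the 19037 genes tested. Residual degrees of freedom were 4, the biological coefficient of variation was 26.6%, and the median SE of a log2 fold change was 0.157. The CK libraries were scaled to the same reference library and not fitted. Scripts were tested on simulated data.

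Named genes were the 10 higher and the 10 lower calls with the smallest adjusted p among those whose libraries did not overlap. Added to these were the 5 calls with 1 side at 3 counts or fewer per library and most counts on the other. Up to 3 long non-coding RNAs per direction, all called small nucleolar RNAs and members of sets of 5 or fewer were also named. The largest folds, most counted genes, abundant genes and neighbour runs were chosen after their values were seen. Members and lists were chosen with earlier results of these data known. Transcript kind, gene length and gene order came from the RefSeq table of assembly ASM765513v2, which 27509 genes matched by symbol and 37 by locus tag, while 347 did not match. Lists by protein signature and promoter motif were planned and not run, for want of product names and sequences. Alternatives were DESeq2 size factors, library size, other filters, DESeq2 1.42.0, 2 groups without the dose, a replicate block, the adjusted p alone, a test against a fold of 2, removal of each library's length trend and leaving out each library. Library size and length trend for transcript kinds were added after seeing the data.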

Additional observations from a re-analysis of the deposited data

Results flagged for a closer look

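In 10 of 192 groups of 4 libraries screened, the highest or lowest library stood apart from the other 3 by Dixon's gap test at the 95% critical value, and chance flags about 1 group in 20. LOC116201290 had no count in B9 6 mg/L replicate 1 (0 CPM), beside 33.2 to 55.8 CPM in the other B9 libraries. LOC116210572 was at 488 CPM in B9 8 mg/L replicate 1 and at 991 to 1130 CPM in the others of B9. LOC116206046 was at 10.05 CPM in mannitol 2.5 g/L replicate 1 and at 8.94 to 9.07 CPM in the other mannitol libraries. The long non-coding RNA LOC116206178 was at 853 CPM in B9 6 mg/L replicate 2 and at 736 to 749 CPM in the others of B9. LOC116203465 was at 1.31 CPM in mannitol 2.5 g/L replicate 2 and at 0.387 to 0.463 CPM in the others of mannitol. LOC116203459 was at 1.33 CPM in B9 8 mg/L replicate 1 and at 0.352 to 0.413 CPM in the others of B9. A further 3 rested on very few counts: LOC116188609 at 0.0698 CPM in B9 8 mg/L replicate 1 and 0 in the others, LOC116205496 at 0 in B9 6 mg/L replicate 1 and 0.105 to 0.132 CPM in the others, and LOC116194985 at 0.588 CPM in B9 8 mg/L replicate 2 and 0 to 0.0349 CPM in the others. Genes annotated as ribosomal RNA took 0.498% of the counts in mannitol 2.5 g/L replicate 1 and 0.0666 to 0.0986% in the other mannitol libraries.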

How the results depend on the processing

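The pooled comparison gave 2086 calls as fitted, 2093 with DESeq2 size factors, 2026 with the library size alone, 2102 with no filter, 1657 with a mean of at least 50 counts, 2258 by DESeq2, 1798 without the dose and 1817 with the length trend removed. With the library size alone 995 were higher and 1031 lower (49.1% higher, against 43.6%). The median log2 fold change of all genes was 0.02, 0.00 and 0.07 under TMM, DESeq2 size factors and library size. A test against a fold of 2 left 159 calls (86 higher, 73 lower), since it asks more of each gene than a fold threshold on the estimate, and the adjusted p alone gave 7420 (3693 higher, 3727 lower).

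Leaving out 1 library gave 1394 to 2335 calls, 575 to 1096 higher and 819 to 1307 lower, and kept 64.5 to 86.9% of the 2086. Without a library numbered 2 the count was 1394 to 1696, and without one numbered 1 it was 2118 to 2335. In the pairings the range was 182 to 1915 (6 mg/L with 2.5 g/L), 345 to 2006 (6 mg/L with 15 g/L), 768 to 2297 (8 mg/L with 2.5 g/L) and 5 to 1554 (8 mg/L with 15 g/L). It was 0 to 27 between the B9 doses and 0 to 22 between the mannitol doses. Where this left a condition with 1 plant, that plant is assumed to vary like the others. DESeq2 called 212 genes between the B9 doses and 804 between the mannitol doses, where a mean of at least 50 counts gave 140. The causes were not tested.

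Replicate numbers did not pair the samples across the chemicals: deviations of same-numbered libraries correlated at -0.14 to -0.30 there. Within a chemical they correlated at 0.41 between the B9 doses and 0.26 between the mannitol doses, and the main fit held no term for this. With the replicate number as a block the pooled count was 2002 (858 higher, 1144 lower), those of the pairings 1606, 1884, 1805 and 1299, that between B9 doses 2 and that between mannitol doses 0. A block common to both chemicals cannot take out a replicate difference that runs in opposite directions in them. The pooled count under it is therefore no check on such a difference. If libraries of a chemical with the same number are not independent, the pooled SE and p may be too small, which was not tested.

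For the 92 genes described by name, 1382 of 1542 values under the alternatives kept direction and call, 159 kept the direction and lost the call, and 1 reversed: LOC116187053 had a log2 fold change of 0.0949 in the fit of 2 groups without the dose. Of the 20 with the smallest adjusted p, LOC116204803 lost its call under the test against a fold of 2 and the others kept theirs in every alternative. With 2 plants per condition and 4 residual degrees of freedom, differences of less than the 2-fold threshold and those of genes at a few counts are the least certain.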
